A study of Mus musculus with 24 samples.

Results

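The plasminogen activators, the urokinase receptor and plasminogen were followed at the RNA level in mouse lacrimal gland (LG) and in cultured lacrimal gland stem cells (LGSCs). Each passage 2 or tissue library listed 63862 genes, of which 11226 were assembled loci without an Ensembl identifier. The set held 4 genes, Plat (ENSMUSG00000031538), Plau (ENSMUSG00000021822), Plaur (ENSMUSG00000046223) and Plg (ENSMUSG00000059481). They were chosen by name because Plat had one of the steadiest rises over the culture days, so the culture values of Plat and its 3 partners are given as a description without a test. Plat and Plaur passed a filter of a mean of 0.5 FPKM (fragments scaled to transcript length and to a factor for each library), and Plau and Plg did not.

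The study sequenced polyadenylated RNA of C57BL/6 mice. LGSCs came from LGs of mice aged 6 to 8 weeks that were dissociated and seeded as single cells in Matrigel, in a serum-free medium with EGF, FGF10, Wnt3A and the ROCK inhibitor Y-27632, where they grew into spheres. Passage 2 spheres were sampled at day 5 (2 libraries analysed here), day 7, day 10 and day 14 (3 each), and 1 further library came from passage 10 spheres at day 7. Tissue came from the adult gland, whose age the labels do not give, and from embryonic gland at E17.5 and at E19.5, with 3 libraries each. All groups shared the strain, and the labels name no transgene. The labels do not say whether replicates came from separate animals or cultures, so the p-values measure the spread between these libraries, which may be technical.

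Plasminogen is the circulating precursor of plasmin, a protease that dissolves fibrin and cleaves matrix proteins and latent growth factors. Plat encodes tissue-type plasminogen activator (tPA), a secreted protease that works best on fibrin, and Plau encodes urokinase (uPA), which works at the cell surface when it is held by its receptor uPAR, the product of Plaur. Serpins such as protease nexin-1 (Serpine2) block both activators. In branching glands this system belongs to the proteases that remodel matrix around growing epithelium, and endothelial cells are a well-known source of tPA.

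The RefSeq promoter table for GRCm38.p6 matched 1 of the 4 genes, Plaur, and its start site is shown as that of the receptor gene whose levels differed between passage 2 spheres and gland. The sequence covers 250 bases before to 50 after the start, at chr7:24462233-24462532 on the plus strand. Capitals mark matches to an AP-1 motif (TGANTCA) and to GC boxes (GGGCGG), both searched on both strands.
Plaur: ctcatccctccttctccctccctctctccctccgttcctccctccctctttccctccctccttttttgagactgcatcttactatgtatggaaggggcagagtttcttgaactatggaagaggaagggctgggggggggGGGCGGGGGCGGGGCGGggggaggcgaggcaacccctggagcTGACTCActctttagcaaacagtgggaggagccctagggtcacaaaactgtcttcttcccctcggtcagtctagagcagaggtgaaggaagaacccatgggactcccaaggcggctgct
The single AP-1 match, TGACTCA, began 69 bases before the start site, and 7.81% of the 32851 promoters of this length hold that motif. The 3 GC boxes began 111, 105 and 100 bases before the start, the later pair sharing a base, and 35.7% of promoters hold at least 1. The matches are a description of the letters in this window and were not tied to any measurement here.

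Depth was 6434734 to 9258020 reads in the 20 passage 2 and tissue libraries, as recovered from the steps of the FPKM values. These reads and the library totals used below cover genes with an annotated length (GENCODE M21). The 11226 assembled loci are not in them. Adult LG stood apart, since its 10 leading genes held 60.4%, 59.6% and 31.3% of the recovered reads in the 3 libraries and at most 8.07% in the other 17 libraries of this set. Its recovered reads were 2.67, 2.57 and 1.10 times the library size that the FPKM values imply, against 0.832 to 1.13 in the other 17. The deposited values were thus not scaled to library totals. Their median ratio factors lay at 0.998 to 1.04 in the 20 libraries. Gapdh and Mki67 were listed at 0 in all 20 libraries, and 577 of the 5333 genes with at least 10 FPKM in the passage 10 library were also at 0 in every one of them. A listed 0 is therefore reported as such and not as absence. Epithelial identity could be checked in part. Cdh1 (E-cadherin) lay at 388 to 916 FPKM in the 11 sphere libraries against 121 to 178 in gland, while Epcam and Krt8 were listed at 0 in all 20 libraries. The basal keratin Krt14 was at 3.35 to 17.8 FPKM in passage 2 spheres. It was 7065 FPKM in the passage 10 library, which was made against another gene list. The study uses this keratin as a stem cell marker and reports it by staining as high in all sphere cells. How fully Krt14 was counted was not tested, so its low values in passage 2 spheres are not read as low expression. Fibroblast markers (6 genes) summed to at most 1.41 FPKM and endothelial markers (5 genes) to at most 0.255 FPKM in any passage 2 sphere library.

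Plat, the tissue-type activator, was high in embryonic LG, intermediate in spheres and low in adult LG. It measured 71.4, 69.5 and 67.2 FPKM in E17.5 LG and 69.5, 75.5 and 88.5 FPKM in E19.5 LG. Adult LG had 1.39, 2.38 and 4.79 FPKM, which rested on 21, 47 and 228 reads. All embryonic libraries lay above all adult libraries, and replicates 1 and 2 of adult LG, which gave most of their reads to a few genes, were the lowest. Group means were 69.4 ± 2.10 FPKM in E17.5 LG, 77.8 ± 9.71 FPKM in E19.5 LG and 2.85 ± 1.75 FPKM in adult LG (SD, n = 3 each).

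In spheres Plat went from 17.1 and 12.5 FPKM at day 5 to 14.7, 15.8 and 23.0 FPKM at day 7. It then measured 29.4, 19.45 and 29.5 FPKM at day 10 and 59.7, 48.8 and 46.7 FPKM at day 14. Day 14 lay above every earlier library, while the values of neighbouring earlier days overlapped. Day 14 was above day 7 in each replicate number, 4.05-fold in number 1, 3.08-fold in number 2 and 2.03-fold in number 3. The only step down was from day 5 to day 7 in replicate number 1. The slope of log2(FPKM + 1) was 0.20 per day, given as a description of the values by which Plat was chosen. Across all 15584 genes tested 2.14% passed an adjusted p of 0.05 for this slope (limma, Benjamini-Hochberg), 0.648% as rising, or 783 genes in place of 334 with the replicate number as a block. Among these libraries Plat stood at percentile 71.4 to 90.9 of the genes with at least 1 FPKM, and in adult LG at 12.9, 30.6 and 55.7.

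**Figure D1:**
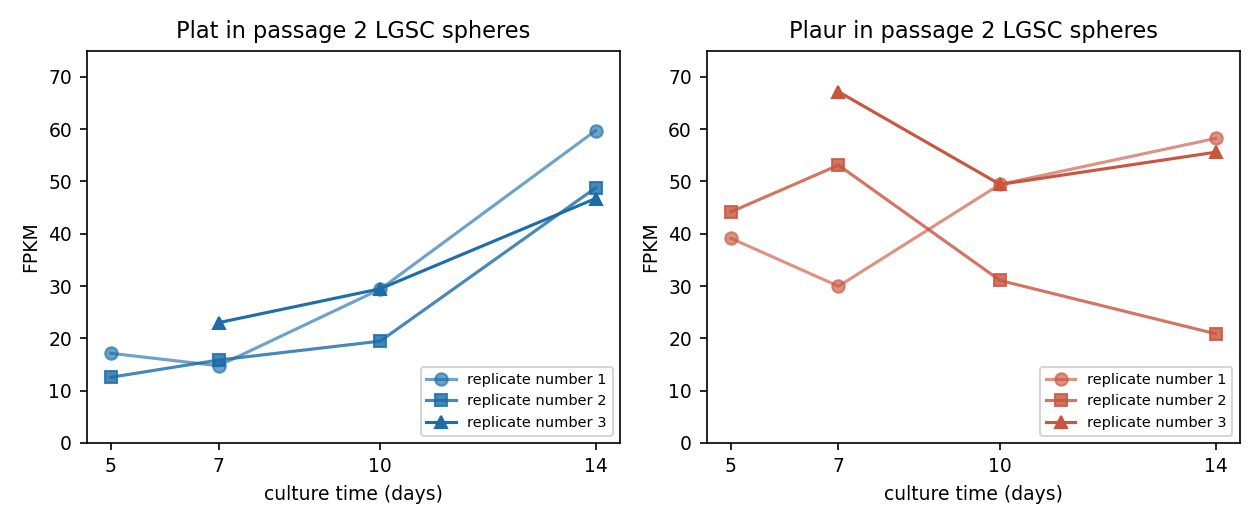
FPKM of Plat (left) and Plaur (right) against culture time in days in passage 2 LGSC spheres, with 1 point per library and lines joining libraries of the same replicate number. Plat lay at 46.7 to 59.7 FPKM at day 14, above every earlier library, while Plaur at day 14 spread from 20.9 to 58.2 FPKM.

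Plaur, the urokinase receptor, was placed differently. Spheres held the highest levels, with 39.1 and 44.2 FPKM at day 5 and 30.0, 53.1 and 67.2 FPKM at day 7. At day 10 it measured 49.4, 31.1 and 49.4 FPKM, and at day 14 58.2, 20.9 and 55.6 FPKM. No day stood apart, and the slope over culture days was -0.01 per day (SE 0.042), a sign that turned to 0.0096 when scaled to the sum without the 10 most abundant genes and to 0.0073 with recovered reads scaled to the library total (limma-voom). Between day 7 and day 14 the level changed 1.94-fold in replicate number 1, 0.393-fold in number 2 and 0.828-fold in number 3, so the replicate numbers went different ways. Without day 14 replicate 2, the library with the lowest Plaur among spheres, the slope was 0.04 per day. The spheres of replicate number 2 also differed in a luminal keratin, with Krt18 at 130 to 176 FPKM against 689 to 1734 FPKM in the other sphere libraries, and the part of this in the Plaur values was not tested.

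In gland Plaur lay at 7.02, 7.10 and 7.26 FPKM at E17.5, at 9.22, 9.86 and 8.62 FPKM at E19.5 and at 8.87, 13.5 and 17.6 FPKM in the adult. Every passage 2 sphere library was above every gland library. Adult LG was the most spread, and its lowest library fell within the E19.5 values. Means were 7.13 ± 0.121 FPKM, 9.23 ± 0.620 FPKM and 13.3 ± 4.39 FPKM (SD, n = 3 each).

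**Figure D2:**
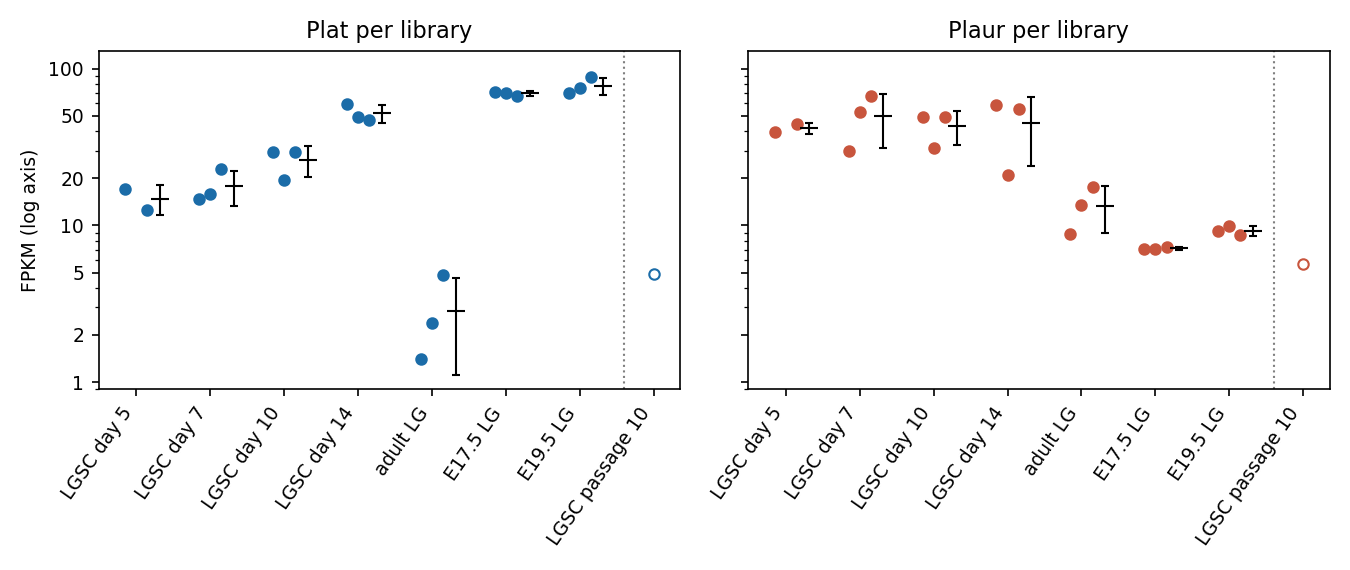
FPKM per library (log axis) of Plat (left) and Plaur (right) in the 7 passage 2 and tissue groups and the passage 10 library (open circle, set apart by a dotted line because its gene list differed). Filled points are libraries and black bars are mean ± SD. Plat was lowest in adult LG at 1.39 to 4.79 FPKM, and Plaur was below 18 FPKM in all gland libraries and at 20.9 FPKM or more in all passage 2 spheres.

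Ordered by mean, Plat went from adult LG through LGSC day 5 (14.8 FPKM), day 7 (17.9 FPKM), day 10 (26.1 FPKM) and day 14 (51.7 FPKM) to E17.5 LG and E19.5 LG. Neighbours in this order were separated between adult LG and day 5, between day 10 and day 14 and between day 14 and E17.5 LG, and overlapped elsewhere. For Plaur the order began with E17.5 LG and went through E19.5 LG and the adult gland to LGSC day 5 (41.7 FPKM), day 10 (43.3 FPKM), day 14 (44.9 FPKM) and last day 7 (50.1 FPKM). Here the values separated between E17.5 and E19.5 LG and between adult LG and day 5, and overlapped at all other steps.

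Plau, urokinase itself, had a listed value of 0 in each of the 20 libraries, where its receptor did not. The passage 10 library, made against another gene list, had Plau at 83.3 FPKM on 4689 reads. Plg was listed at 0 in 18 of the 20 libraries and in passage 10, and at 0.113 and 0.0454 FPKM in E17.5 LG replicates 2 and 3. In the annotation Plg overlaps Slc22a3 on the opposite strand, and no other gene overlaps a gene of the set. Without knowing whether strand was used in counting, such low Plg values cannot be assigned to 1 of the overlapping genes.

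The first comparison asked how embryonic gland differs from adult gland. Plat was 24.3-fold higher in E17.5 LG and 27.3-fold higher in E19.5 LG than in adult LG by the ratio of means. On the log2(FPKM + 1) scale the differences were 4.29 (SE 0.29, adjusted p = 7.4e-06) and 4.44 (SE 0.29, adjusted p = 7.3e-06) in limma fitted over all 9 tissue libraries. The background was high, with 54.0% of 18578 genes called between E17.5 and adult LG (29.1% higher and 24.9% lower) and 54.2% between E19.5 and adult LG (30.3% higher and 23.9% lower). The groups of Plat values did not overlap, as was the case for 59.5% and 58.8% of genes. Both comparisons use the same 3 adult libraries. With adult LG replicate 3 as the lone adult library, assumed to vary like the other groups, the differences were 3.604 and 3.76.

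Plaur was lower in E17.5 LG than in adult LG by -0.77 (SE 0.22, adjusted p = 0.015), with values that did not overlap, but this direction depended on scaling. Scaled to the sum without the 10 most abundant genes of each library it was -0.46 (adjusted p = 0.25). With recovered reads scaled to the library total (limma-voom) it reversed to 0.13 (adjusted p = 0.82). The adjusted p ran from 0.014 to 0.82 in the alternatives that kept all adult and E17.5 libraries. The median was 0.05 over the 18578 genes tested on the deposited scale. It was 1.10 over the 14601 genes tested with library totals, which is another gene set. Plaur lay below the median of each fit. In E19.5 LG against adult LG the Plaur difference was -0.44 (SE 0.22, adjusted p = 0.12), with overlapping values. It also reversed with library totals, to 0.39 (median of all genes in that fit 1.04).

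Between E19.5 and E17.5 LG neither gene passed the test over the 3 tissue groups. Plat differed by 0.16 (SE 0.29, adjusted p = 0.89), a sign that turned to -0.05 when scaled to the sum without the 10 most abundant genes. Plaur differed by 0.33 (SE 0.22, adjusted p = 0.54) although its values did not overlap, as was true of 35.1% of genes, while 1.74% of genes were called, 1.11% higher and 0.624% lower. In a fit of only these 2 groups, without the spread of adult LG, Plaur passed with an adjusted p of 0.046 (range over the alternatives 0.046 to 0.92).

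The second comparison set LGSC spheres at day 7 against gland. Both genes were higher in spheres than in adult LG, Plat 6.26-fold (log2 2.36, SE 0.37, adjusted p = 0.0042) and Plaur 3.76-fold (log2 1.81, SE 0.38, adjusted p = 0.012), where 35.2% of 17698 genes were called, 14.2% higher and 21.1% lower. The sphere and adult values overlapped for neither gene, and 52.4% of genes had such values. With adult LG replicate 3 as the lone adult library both lost the call, Plat at 1.68 (adjusted p = 0.058) and Plaur at 1.38 (adjusted p = 0.19), while the adjusted p of the other alternatives that kept all libraries stayed under 0.05. Against E17.5 LG the genes went opposite ways. Plat was lower by -1.93 (SE 0.17, adjusted p = 2.6e-04), which is 0.257 of the embryonic mean, and Plaur was higher by 2.58 (SE 0.28, adjusted p = 6.5e-04), which is 7.03-fold. Of 17391 genes 47.6% were called in this comparison, 18.1% higher and 29.6% lower, and 59.6% had values that did not overlap, as Plat and Plaur did. Neither value lost its call or direction in any alternative. The day 7 libraries also belong to the culture series by which Plat was chosen.

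**Figure D3:**
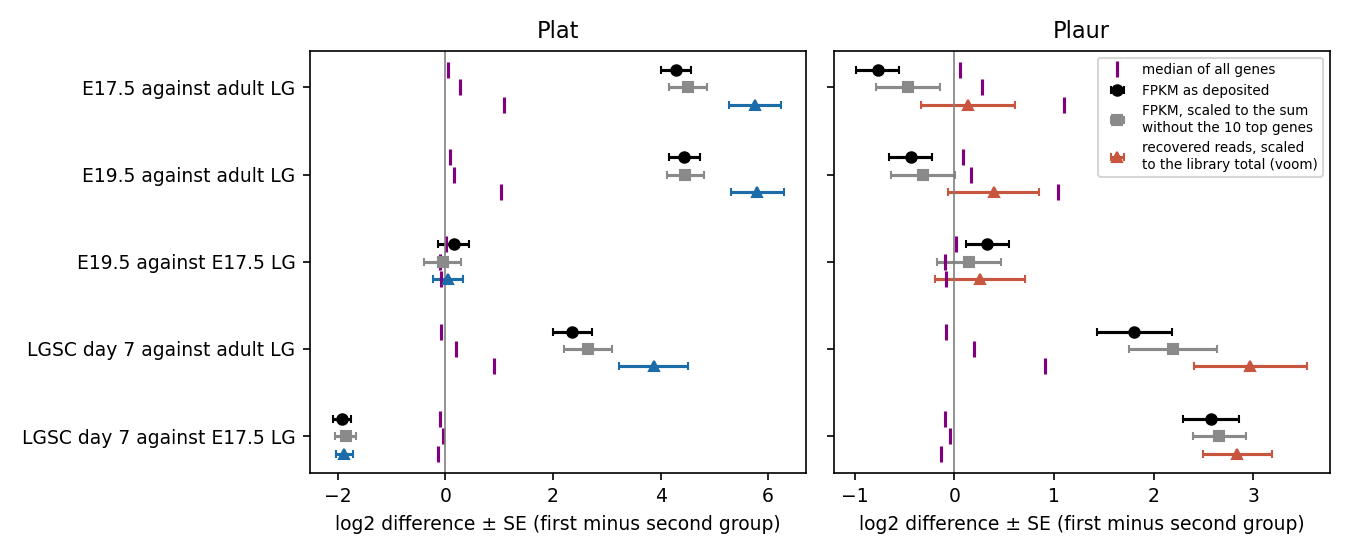
Log2 differences ± SE of Plat (left) and Plaur (right) in 5 comparisons, first minus second group, from FPKM as deposited (circles), FPKM scaled to the sum without the 10 most abundant genes (squares) and recovered reads scaled to the library total (triangles), with the median of all genes tested in each fit as purple ticks. Plat stayed above 4 in embryonic against adult LG under all 3 scalings, while Plaur in the same comparisons moved from -0.77 to 0.13 at E17.5 and from -0.44 to 0.39 at E19.5.

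The gland libraries also differed in their mix of cells, and in bulk tissue fewer cells of a type and less RNA per cell cannot be told apart. The summed endothelial markers were 43.4 to 130 FPKM in adult LG, 122 to 149 FPKM in E17.5 LG and 152 to 188 FPKM in E19.5 LG. Cdh5 (VE-cadherin) was at 26.3, 31.4 and 78.7 FPKM in the 3 adult libraries. Plat rose in the same order, but so did Plaur, while the share of reads in the leading genes fell. The order was thus not particular to Plat. Summed fibroblast markers were 164 to 323 FPKM in adult LG and 4705 to 5680 FPKM in both embryonic stages together. All 6 of them passed as higher than in adult LG at both stages. Of the 3 endothelial markers that were tested, 1 passed as higher in E17.5 LG and 2 in E19.5 LG. Among all genes, 29.1% were called higher in E17.5 LG than in adult LG, and 30.3% in E19.5 LG. The part of these cell types in the Plat difference between embryonic and adult gland was not tested. In the 11 passage 2 sphere libraries Cdh5 (VE-cadherin) was at most 0.0351 FPKM, Tek at most 0.125 FPKM and Emcn at 0, against up to 116, 57.8 and 28.3 FPKM in gland. Acta2, a smooth muscle and myoepithelial gene, went from 9.31 and 4.72 FPKM at day 5 to 24.9, 2.71 and 180 FPKM at day 14, where Plat was 59.7, 48.8 and 46.7 FPKM, and its part in the Plat values was not tested.

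The ratio of Plat to Plaur within a library does not depend on how libraries are scaled. It was 9.26 to 10.2 in E17.5 LG and 7.54 to 10.3 in E19.5 LG, but 0.157 to 0.272 in adult LG. In spheres it was 0.284 and 0.438 at day 5, 0.298 to 0.492 at day 7, 0.594 to 0.626 at day 10 and 0.841 to 2.34 at day 14. Embryonic gland thus listed more tPA than receptor transcript per length, adult gland and early spheres less, and the values of day 14 overlapped with no other of the 7 groups. A ratio between genes rests on how fully each was counted, which the zeros above limit.

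**Figure D4:**
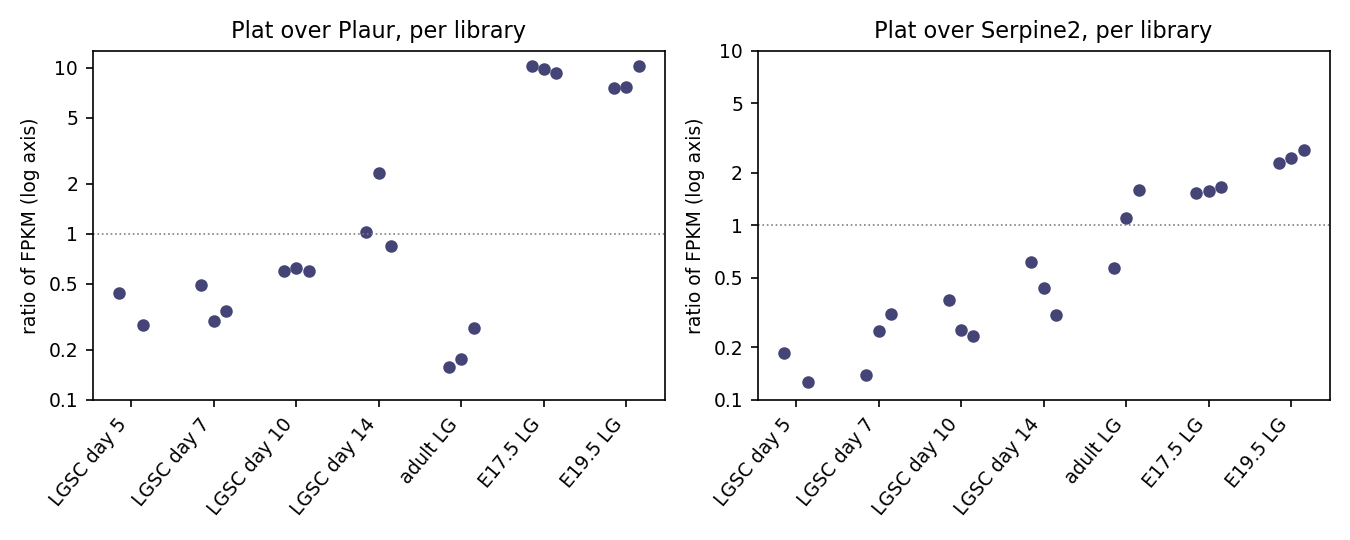
Ratios of FPKM within each library (log axis) for Plat over Plaur (left) and Plat over Serpine2 (right) in the 7 groups, 1 point per library, with a dotted line at 1. Plat over Plaur was above 7 in all embryonic libraries and below 0.3 in all adult libraries, and Plat over Serpine2 was above 1.5 in all embryonic libraries and at most 0.621 in all spheres.

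The other genes of the system were taken from a list of 34, of which 17 could be tested in gland. Between E17.5 and adult LG 8 were higher and 4 lower, a median of 0.61 on the log2 scale against 0.05 for all genes, of which 54.0% were called. With adult LG replicate 3 as the lone adult library it was 5 higher and 7 lower, with a median of -0.24, and without E17.5 LG replicate 1 it was 5 higher and 2 lower. In E19.5 LG 8 were higher than in adult LG and 2 were lower, with a median of 0.44 against 0.09 for all genes, of which 54.2% were called. With the lone adult library it was 5 higher and 5 lower, with a median of -0.11, and without adult LG replicate 3 it was 13 higher and 2 lower, with a median of 1.20, so the direction of the list as a whole rested on the adult libraries used. Between the embryonic stages, where 1.74% of all genes were called, 1 passed, A2m, a broad protease inhibitor, at 0.77 (adjusted p = 0.024). It was 0.66 (adjusted p = 0.060) without the 10 most abundant genes and 1.38 (adjusted p = 0.11) with library totals, and the list had 0 calls with any single library left out. In spheres at day 7, 5 of 16 were higher and 4 lower than in adult LG, beside 35.2% of all genes called, and 5 were higher and 7 lower than in E17.5 LG, beside 47.6%. Over the culture days 0 of 12 tested genes passed in limma, beside 2.14% of all genes, where 4 had an unadjusted p under 0.05, and 0 passed with limma-voom. With limma-voom and the replicate block 3 passed as rising, Ctsb, Mmp9 and Plgrkt, in a fit that called 1003 of 11970 genes.

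Among inhibitors, Serpine2 had the highest listed level in the 20 libraries and was, like Plat, higher in embryonic than in adult gland. Serpinb2, at most 0.762 FPKM in these libraries, was 78.2 FPKM in the passage 10 library beside 63.5 FPKM for Serpine2. The ranking therefore rests on how fully each gene was counted. Serpine2 measured 2.45, 2.17 and 3.01 FPKM in adult LG, 46.7, 43.9 and 40.6 FPKM in E17.5 LG and 30.4, 31.1 and 32.8 FPKM in E19.5 LG. Its difference from adult LG was 3.66 at E17.5 (SE 0.13, adjusted p = 3.7e-07) and 3.20 at E19.5 (SE 0.13, adjusted p = 7.6e-07). Spheres held still more, 106, 63.5 and 74.2 FPKM at day 7, and 4.51 above adult LG (adjusted p = 1.5e-04). Unlike Plat it was higher in day 7 spheres than in E17.5 LG, by 0.85 (adjusted p = 0.013). The ratio of Plat to Serpine2 was 0.126 and 0.186 at day 5 and 0.306 to 0.621 at day 14 in spheres, 0.569 to 1.59 in adult LG, 1.53 to 1.66 in E17.5 LG and 2.29 to 2.70 in E19.5 LG. Serpini1 (neuroserpin), an inhibitor of tPA, was higher in both embryonic stages (1.58 and 1.81) and lower in spheres than in E17.5 LG (-1.99).

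Of the proteins that hold plasminogen at the cell surface, S100a10 and its partner Anxa2 were higher in E17.5 LG, E19.5 LG and day 7 spheres than in adult LG. S100a10 measured 19.2, 30.4 and 56.8 FPKM in adult LG and 307, 293 and 331 FPKM in E17.5 LG, a difference of 3.23 (SE 0.35, adjusted p = 1.1e-04), and 3.39 in spheres. Against E17.5 LG its difference in spheres was 0.16 (adjusted p = 0.19), and it passed at 0.24 (adjusted p = 0.025) without the 10 most abundant genes and at 0.27 (adjusted p = 0.021) with library totals. Anxa2 differed from adult LG by 0.94 at E17.5, 1.32 at E19.5 and 1.51 in spheres. Its mean in day 7 spheres was 6.36 FPKM beside 498 FPKM at passage 10, and how fully it was counted was not tested. Plgrkt, a plasminogen receptor, passed only in spheres against E17.5 LG among these comparisons (-0.54).

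Vtn (vitronectin), a matrix protein that binds uPAR, was 25.8, 22.9 and 21.8 FPKM in E17.5 LG and 4.70, 6.37 and 12.5 FPKM in adult LG. It was at 0 in 10 of the 11 sphere libraries and at 0.0532 FPKM in the other, and its difference in day 7 spheres was -3.03 from adult LG (adjusted p = 0.0013) and -4.59 from E17.5 LG (adjusted p = 2.0e-06). Lrp1, which takes up activators bound to inhibitors, was higher in both embryonic stages (1.03 and 0.92), the latter losing its call at 0.95 (adjusted p = 0.062) when scaled to the sum without the 10 most abundant genes. Sorl1, another clearance receptor, was lower at E17.5 than in adult LG (-0.66) as deposited and turned to 0.27 with library totals.

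Among substrates, Fgg, the fibrinogen gamma chain, had the largest difference in the list. It measured 977, 837 and 139 FPKM in adult LG, 3.01, 2.53 and 2.81 FPKM in E17.5 LG and at most 1.03 FPKM in spheres. The other fibrinogen chains of the list, Fga and Fgb, were at most 0.0689 and 0.248 FPKM in any of the 20 libraries. The adult library with the lowest Fgg was replicate 3, the one with the highest Plat. The differences were -7.01 at E17.5 (adjusted p = 3.6e-05), -7.60 at E19.5 (adjusted p = 2.8e-05) and -8.83 in spheres (adjusted p = 4.7e-04). Tgfb1, whose latent product plasmin can activate, was higher in spheres than in adult LG (1.97) and E17.5 LG (1.48), with 72.5, 62.1 and 75.6 FPKM at day 7 against 24.2, 24.3 and 24.5 FPKM at E17.5. Mmp3 (stromelysin-1), a protease that plasmin activates, was lower in spheres than in adult LG (-3.91) and E17.5 LG (-2.46), and Hgf, a growth factor that urokinase can process, by -1.35 and -1.96, the former losing its call at -1.21 (adjusted p = 0.077) without the 10 most abundant genes and at -3.63 (adjusted p = 0.068) with library totals.

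St14 (matriptase), a membrane protease that activates pro-urokinase, was, like Plaur, highest in spheres. It measured 137, 121 and 143 FPKM in day 7 spheres, 28.5, 30.5 and 36.6 FPKM in E17.5 LG and 49.9, 54.9 and 60.3 FPKM in adult LG. Spheres were above adult LG by 1.27 (adjusted p = 0.0037) and above E17.5 LG by 2.04 (adjusted p = 5.3e-05). Embryonic LG was below adult LG by -0.77 and -0.85 as deposited, values that turned to 0.21 and 0.02 with library totals. Ctsb (cathepsin B) was higher in spheres than in E17.5 LG (0.80).

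**Figure D5:**
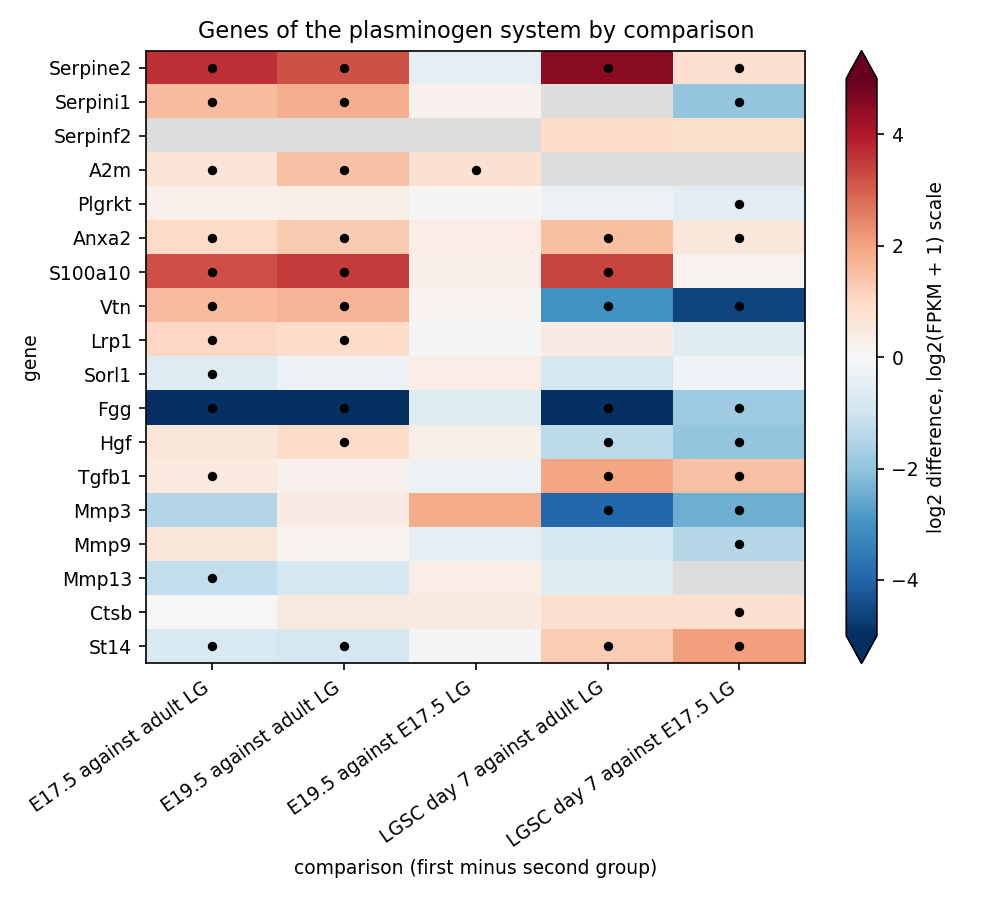
Log2 differences on the log2(FPKM + 1) scale for genes of the plasminogen system that were tested in at least 1 comparison (rows, ordered by role), in 5 comparisons (columns, first minus second group). Colours run from -5 to 5, black dots mark an adjusted p under 0.05 in limma and grey cells were not tested. Serpine2 and S100a10 were higher than in adult LG in E17.5 LG, E19.5 LG and day 7 spheres and Fgg lower in all 3, while St14 in embryonic LG was below adult LG as deposited and turned to 0.21 and 0.02 with library totals.

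Over the 20 libraries the genes whose log2(FPKM + 1) values were most like Plat were Fgfr1 (Pearson r 0.951), Ager (0.950), Cklf (0.940), Stk3 (0.935) and Nlgn2 (0.935), among 10679 genes that averaged 1 FPKM or more. These 5 were lowest in adult LG, and Nlgn2 went from 13.0 FPKM at day 7 to 32.6 FPKM at day 14 and 54.5 FPKM at E17.5. Most like Plaur were Plcg2 (0.972), Pabpc1l (0.964), Lancl3 (0.964), Kcnk12 (0.961) and Ass1 (0.961). Plcg2 had a mean of 75.5 FPKM at day 7, 25.0 FPKM in adult LG and 9.52 FPKM in E17.5 LG. These correlations describe libraries that share groups and the adult LG composition, and carry no test. Plau had no spread over these libraries to compare.

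The passage 10 library at day 7 listed Plat at 4.93 FPKM on 731 reads and Plaur at 5.64 FPKM on 351 reads. Passage 2 spheres at day 7 had means 3.63-fold and 8.88-fold above these values. The levels cannot be set against each other as a passage effect: 50.6% of the genes with at least 10 FPKM at passage 10 were under 0.1 of that value in passage 2 spheres of the same day, and Krt14 was 7065 FPKM at passage 10 and 6.51 to 17.8 FPKM in passage 2 spheres of day 7. Passage and gene list cannot be told apart with 1 library. Serpine2 was 63.5 FPKM and S100a10 395 FPKM at passage 10, beside 81.3 and 347 FPKM as means of passage 2 spheres at day 7. Anxa2 was 498 FPKM beside 6.36 FPKM and Serpinb2, an inhibitor of urokinase, 78.2 FPKM beside 0.254 FPKM.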

How the data were processed

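RNA of LGSC spheres and LG was sequenced as 150-bp paired-end libraries (NEBNext Ultra). Per the submitters' processing notes the tools were CASAVA 1.8, HISAT2 2.0.5 and featureCounts 1.5.0-p3, with the build NCBIM37. For each library the authors deposited a table of gene identifiers and values, taken as FPKM because the step from counts is not given in the sources used here. Of 24 samples, 21 were analysed, and a day 5 replicate and passages 6 and 20 were not analysed here. Symbols came from GENCODE M21, which held 52489 of 52636 Ensembl identifiers. Dividing by the FPKM of 1 read gave whole numbers (within 0.01, up to 1000 reads) for 92.6% to 93.6% of genes.

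Groups came from sample titles. Members and gene lists were chosen with earlier results of these data known. Named were the 4 genes in every library, up to 4 genes per role and comparison of the 34-gene list with the largest difference past the threshold, and 5 genes most like each member. A gene of the list is not reported here. Markers of 8 cell types were read for identity.

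Tests used limma 3.58.1 (lmFit, eBayes with trend; R 4.3.3) on log2(FPKM + 1), which understates changes of low genes, among genes averaging 0.5 FPKM or more, with Benjamini-Hochberg adjustment at 0.05. The embryonic and adult comparisons shared 1 fit of 9 libraries. The script was tested on simulated data. Tables were made with Python 3.11.15. The paper's count test was not repeated. The deposited values are FPKM, and the reads recovered from them were used only in the alternatives with limma-voom. Alternatives were a pseudocount of 0.1, no filter, a filter at 1 FPKM, other scalings, limma-voom on recovered reads, a replicate block, other library sets and each library left out. Chosen after seeing the data were adult LG replicate 3 as the lone adult library and limma-voom with the block. Same-numbered sphere libraries deviated together (mean correlation 0.457, lowest 0.260), so the block pairs the culture libraries.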

Additional observations from a re-analysis of the deposited data

Results flagged for a closer look

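In the passage 10 library, which entered no comparison, 2 of the genes described here had values while they were listed at 0 in all 20 other libraries. They were Plau at 83.3 FPKM (4689 reads) and Clec3b (tetranectin, a plasminogen-binding protein) at 0.466 FPKM (11 reads). Of 5333 genes with at least 10 FPKM at passage 10, 577 (10.8%) were at 0 in every other library, Gapdh (3.001 FPKM at passage 10) was too, and the part of the differing gene lists in this was not tested.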

How the results depend on the processing

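Over the 5 comparisons of groups, 137 values of Plat and Plaur under alternatives kept direction and side of the threshold, 3 reversed, 3 lost and 3 gained a call. Filters, the replicate block and fits of 2 groups or of all 20 libraries left each difference unchanged, and there only its call could move. Median ratio scaling, with factors of 0.998 to 1.04, could move the differences little. Plaur in E17.5 against adult LG was -0.46 scaled to the sum without the 10 most abundant genes and 0.13 with limma-voom on recovered reads. In E19.5 against adult LG it was 0.39 with limma-voom and -0.87 with adult LG replicate 3 as the lone adult library, and with single libraries left out it ran from -0.69 (without adult LG replicate 1, adjusted p = 0.0065) to -0.23. Plat in E19.5 against E17.5 LG was -0.048 scaled without the 10 most abundant genes, and Plaur was 0.33 (adjusted p = 0.046) in a fit of only the 2 groups. In LGSC day 7 against adult LG, with that lone adult library, Plat was 1.68 and Plaur 1.38. The cause of these changes was not tested.

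Counts of called genes are totals of separate fits. E19.5 against E17.5 LG gave 323 calls, and 162 with a pseudocount of 0.1, 40 with limma-voom, 100 with the replicate block, 2144 in the fit of only the 2 groups and 50 to 197 without single libraries. LGSC day 7 against adult LG gave 6238 calls, and 3770 to 8135 without single libraries. The slope gave 334 calls, and 82 without a filter, 783 with the replicate block, 1003 with limma-voom and the block, 0 over days 7, 10 and 14 only (with 9 libraries in the fit) and 11 to 384 without single libraries. The slope of Plat, the value by which it was chosen, is given as a description and was 0.23 with limma-voom and 0.22 with the block added. The slope of Plaur was 0.0096 without the 10 most abundant genes, 0.0073 with limma-voom and -0.039 to 0.036 without single libraries. Replicate numbers did not pair the other comparisons (mean correlation of deviations -0.009 in gland, 0.007 and 0.030 for day 7 against adult and E17.5 LG), and there the replicate block changed no call of Plat or Plaur.

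Mean levels moved by more than their SD for Plaur in E17.5 LG (6.97 with median ratio scaling, 7.45 without the 10 most abundant genes) and, in the latter scaling, for Plaur in E19.5 LG (8.404) and Plat at day 14 (58.9) and in E17.5 LG (72.5). A slope over log2 of the culture day is in another unit and was compared by its calls only. Depth limits Plat in adult LG, where 21 to 228 reads carry the values.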
